A study of Mus musculus with 22 samples.

Results

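The transcription factors described here are 10 that hold mouse embryonic stem (ES) cells in the naive state, the ground state of pluripotency seen before implantation: Pou5f1 (which encodes OCT4), Sox2, Nanog, Klf2, Klf4, Klf5, Esrrb, Tfcp2l1, Tbx3 and Zfp42 (REX1). They were taken by name from a list and not by a cut on their values, but with earlier results of these data known. They are 10 of 47729 genes counted by RNA sequencing in each of 22 libraries. The study asked whether duplication of the Dux cluster, which encodes a transcription factor that switches on genes of the 2-cell embryo, is needed for those genes, with and without loss of DNA methylation. The untreated set holds 3 Dux-KO libraries (clones 15, 22 and 52), 4 Dux n=1 libraries (clones 17, 22, 31 and 40), both made with CRISPR-Cas9, and 3 libraries of the E14 ES line. The treated set holds 2 libraries each of KO22, N22 and WT given GSK-3484862, and 2 each given DMSO, the solvent control, for 3 days. The names Dux-KO and Dux n=1 are read as no Dux and 1 Dux copy, and each edited line of the treated set (KO22, N22) as a single clone, where effects of genotype and of clone cannot be told apart. GSK-3484862 degrades DNMT1, the enzyme that copies DNA methylation at replication. Its dose is 1 uM in the treatment protocol and 2 uM in the design text, so it is uncertain. All cells grew in serum with leukaemia inhibitory factor (LIF). Nothing says that libraries of 1 line came from separate cultures, so the p-values rest on the spread of these libraries alone, which may be technical.

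OCT4 and SOX2 bind DNA together at a composite element and, with NANOG, form the core of the pluripotency network, which these proteins in part sustain by acting on their own genes. LIF acts through STAT3 on Tfcp2l1 and Klf4 and helps to sustain Tbx3, while Esrrb lies downstream of NANOG and of inhibition of GSK3. KLF2, KLF4 and KLF5 are zinc finger factors with overlapping targets, and Zfp42 is a target of the core factors whose loss of expression is widely used as a sign that ES cells leave the naive state.

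All 10 genes were found by symbol, on chromosomes 17 (Pou5f1), 3 (Sox2), 6 (Nanog), 8 (Klf2 and Zfp42), 4 (Klf4), 14 (Klf5), 12 (Esrrb), 1 (Tfcp2l1) and 5 (Tbx3) of GRCm38. Nanog is ENSMUSG00000012396, on the plus strand at chr6:122707489-122714633, and Zfp42 is ENSMUSG00000051176, on the minus strand at chr8:43295068-43307009. Promoters, here the 250 bases before the start in RefSeq (GRCm38.p6), were matched for 8 members, not for Klf5 and Tbx3. Motifs of the network's own factors were searched on both strands: the octamer ATGCAAAT bound by OCT4, the composite OCT-SOX element TTGTNATGC, the KLF motif GGGNGTGG and the ESRRB motif AAGGTCA. Among 32817 RefSeq promoters of the same length, 1.6% held the octamer, 0.65% the OCT-SOX element, 15.86% the KLF motif and 4.08% the ESRRB motif. The 3 promoters with the most matches are shown, with the matches in capitals.
Nanog (chr6:122707239-122707488, plus strand): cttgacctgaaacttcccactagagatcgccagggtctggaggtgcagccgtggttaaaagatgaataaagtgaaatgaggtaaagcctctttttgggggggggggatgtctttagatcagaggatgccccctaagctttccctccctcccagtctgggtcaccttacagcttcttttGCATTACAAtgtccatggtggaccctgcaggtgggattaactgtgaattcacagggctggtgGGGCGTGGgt
Zfp42 (chr8:43307010-43307259, minus strand): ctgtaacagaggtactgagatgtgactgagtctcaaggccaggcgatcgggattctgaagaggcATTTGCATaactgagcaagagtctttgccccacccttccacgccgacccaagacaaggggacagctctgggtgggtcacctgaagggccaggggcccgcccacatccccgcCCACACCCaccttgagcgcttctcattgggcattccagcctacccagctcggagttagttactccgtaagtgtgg
Tfcp2l1 (chr1:118627695-118627944, plus strand): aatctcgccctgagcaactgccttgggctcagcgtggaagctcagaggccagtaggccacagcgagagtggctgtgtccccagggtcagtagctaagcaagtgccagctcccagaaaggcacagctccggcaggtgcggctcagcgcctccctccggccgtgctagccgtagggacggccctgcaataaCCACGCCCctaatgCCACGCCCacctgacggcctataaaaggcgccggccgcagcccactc
The capitals in Nanog mark the OCT-SOX element, 72 bases before the start, and a KLF motif 10 bases before it. In Zfp42 they mark the octamer, 186 bases before the start, and a KLF motif 75 bases before it, and in Tfcp2l1 they mark 2 KLF motifs, 61 and 47 bases before it. Pou5f1 held 1 KLF motif at 80 bases, and the windows of Sox2, Klf2, Klf4 and Esrrb held none of the searched letters. CpG pairs, the site of DNA methylation, numbered 3 in the Nanog window, 6 in Esrrb, 8 in Pou5f1, 9 in Zfp42 and 16 in Tfcp2l1, against 27 in Sox2, 29 in Klf2 and 32 in Klf4, and the median over all promoters was 6. 

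Depth ran from 15803194 to 19427794 counts per library, and every member had at least 2081 counts in every library, so counting error was small beside the spread between clones. Duxf3, the annotated Dux gene, had 0 counts in all 4 KO22 libraries, 13 and 11 in N22 and 19 and 18 in WT with GSK-3484862. In the untreated set, where Duxf3 was near 0 in E14 as well (1, 0 and 0 counts), the library labelled Dux-KO clone 22 had 5 counts of Duxf3 and 17 of Zscan4c, a Dux target, while Dux-KO clone 15 had 0 of both and clone 52 had 1 and 5. Dux n=1 clones 17, 22, 31 and 40 had 1, 3, 0 and 1 counts of Duxf3 and 14, 16, 4 and 1 of Zscan4c, so that these counts do not set clone 40 apart from clone 31. On chromosome 6, where Nanog lies, clone 22 of Dux-KO and clone 40 of Dux n=1 each stood with clones of the other label. Genes of that chromosome stood, in the median log2 difference from E14 relative to all other genes, 0.27 and 0.31 higher in Dux-KO clones 15 and 52 and 0.31 higher in the library labelled Dux n=1 clone 40, but 0.11 lower in the library labelled Dux-KO clone 22 and 0.060 to 0.086 lower in the other Dux n=1 clones. Results of the untreated set are therefore given with and without these libraries, clone 22 of Dux-KO and clone 40 of Dux n=1, called the doubted libraries. In the treated set, where labels and Duxf3 do not conflict, the same measure against WT with DMSO was 0.31 to 0.37 in the 4 KO22 libraries and -0.065 to -0.046 in the 4 N22 libraries. KO22 thus differed on chromosome 6 from the untreated library labelled Dux-KO clone 22, which carries the same number and stood 0.11 lower than E14. N22 and untreated Dux n=1 clone 22 (-0.060) were alike. Whether lines of the same number are the same clone is not stated.

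On a scale per transcript length and depth (TPM), Pou5f1 was the most abundant of the 10, with a median over the 22 libraries of 1160.5 TPM (range 975 to 1406). Zfp42 followed at 929 TPM (range 859 to 1122), then Sox2 at 684 TPM (range 463 to 1030.1), Klf5 at 588 TPM (range 414 to 744), Klf2 at 488 TPM (range 322 to 759.7) and Nanog at 477 TPM (range 398 to 792). Esrrb had 363 TPM (range 278 to 460.0), Klf4 184 TPM (range 116 to 261), Tfcp2l1 149 TPM (range 97.5 to 202) and Tbx3 58.4 TPM (range 40.4 to 133). The ranges of neighbours in this order overlapped, except those of Esrrb and Klf4. All 10 were thus well expressed in each library, and the ES cell label of the samples was met in this respect.

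With GSK-3484862 the network was lower in all 3 lines, but not evenly. A gene was called where its adjusted p in edgeR's quasi-likelihood test, over all genes tested, was below 0.05. In KO22 9 of the 10 members were lower with the compound and none higher, where 21.2% of all tested genes were lower. In N22 9 were lower, against 26% of all genes, and in WT 8, against 28.1%. Every member had at least 2081 counts in each library, and at such a level a small change is more readily called than near the filter. The shares of all tested genes, here and below, are not matched to the members' level. The median log2 change of the members was -0.39 in KO22, -0.29 in N22 and -0.36 in WT, and that of all tested genes was 0.0040, 0.0020 and 0.0030. Tfcp2l1, Klf4 and Esrrb fell in every line by 0.41 or more on the log2 scale, and Pou5f1 by 0.21 or less. In bulk samples, fewer cells that express a gene and less of its RNA per cell cannot be told apart. Mitochondrial genes also took a larger share of counts with the compound, 2.66% to 3.20%, against 1.66% to 2.39% with DMSO, and its part in these results was not tested.

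**Figure D1:**
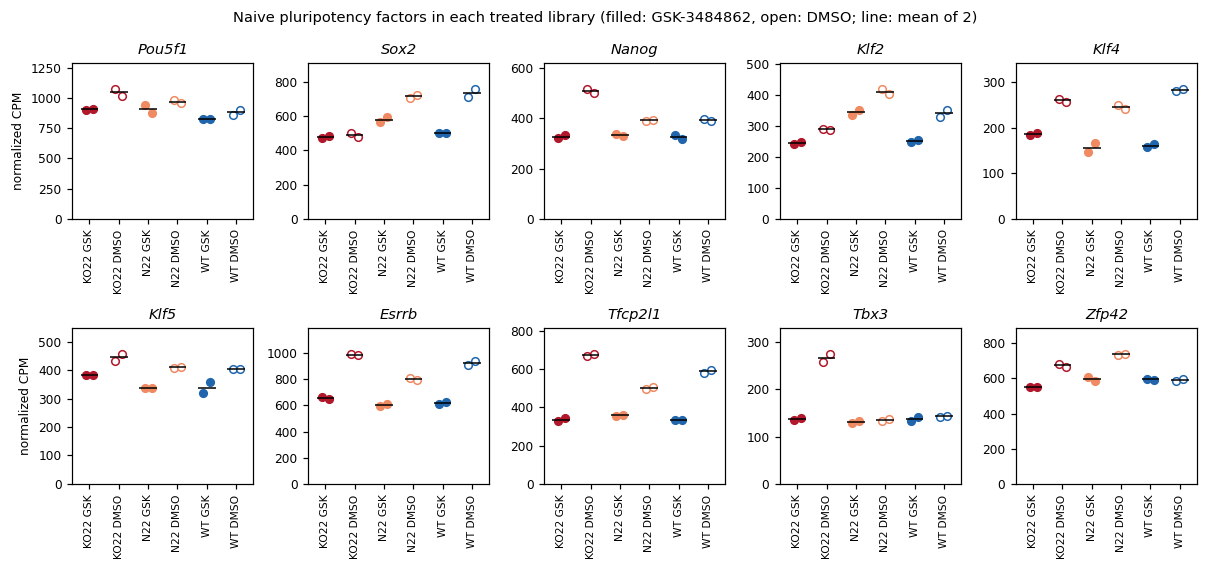
Normalized CPM of each factor in the 12 treated libraries, with filled points for GSK-3484862, open points for DMSO and a line at the mean of 2. Esrrb, Tfcp2l1 and Klf4 sit lower with the compound in every line, and Tbx3 is high only in KO22 with DMSO, at 258 and 275 CPM.

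Among the core factors, Pou5f1 and Nanog fell in all 3 lines and Sox2 in N22 and WT. Pou5f1 had 907 and 909.6 normalized CPM in KO22 with GSK-3484862, against 1077 and 1020.4 with DMSO. In N22 it had 945 and 875 CPM with the compound and 985 and 961 with DMSO, and in WT 832 and 827 and 863 and 903. The 2 compound libraries lay below the 2 DMSO libraries in each line, with log2 fold changes of -0.21 ± 0.032 in KO22, -0.097 ± 0.032 in N22 and -0.090 ± 0.032 in WT (SE, n = 2 libraries a group), and adjusted p by edgeR of 1.33e-07, 0.00804 and 0.0125. The call was lost in WT, with changes of -0.037 to -0.090, under DESeq2, RLE factors or a GC content offset and without either compound library or DMSO library 2, and in N22 without DMSO library 1 or compound library 2. An antisense gene, Gm19553, overlaps 14.1% of Pou5f1's exon bases, and fragments there were left uncounted because strand was not used.

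Sox2 had 475 and 485 normalized CPM in KO22 with GSK-3484862, against 501 and 478 with DMSO. The N22 libraries held 567 and 593 CPM with the compound and 709 and 724 with DMSO, and the WT libraries 500.1 and 500.2 and 711 and 759.9. WT and N22 with DMSO stood apart from the other groups, above 700 CPM, and the KO22 groups overlapped. The log2 change was -0.027 ± 0.033 in KO22 (adjusted p by edgeR 0.527), -0.30 ± 0.033 in N22 (2.35e-12) and -0.56 ± 0.033 in WT (1.35e-23). The responses of KO22 and WT differed by 0.53 ± 0.047 (adjusted p 8.41e-15, edgeR interaction test), and those of N22 and WT by 0.25 ± 0.046 (5.76e-05).

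Nanog had 322 and 333 normalized CPM in KO22 with GSK-3484862, against 518 and 504 with DMSO. Values in N22 were 339.8 and 329 CPM with the compound and 389 and 396 with DMSO, and in WT they were 332 and 316 and 398 and 391. KO22 with DMSO was the highest group, and with the compound the 3 lines lay together between 316 and 339.8 CPM. The log2 change was -0.64 ± 0.034 in KO22 (adjusted p by edgeR 1.15e-25), -0.23 ± 0.035 in N22 (3.75e-08) and -0.28 ± 0.034 in WT (9.55e-11). KO22 fell further than WT, by -0.36 ± 0.049 (adjusted p 1.28e-08), while the difference between N22 and WT was 0.052 ± 0.049 and not called (0.582).

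The 3 KLF factors fell in all lines, Klf4 the most. Klf4 had 184 and 188 normalized CPM in KO22 with GSK-3484862, against 263 and 257 with DMSO. For N22 the levels were 147 and 165 CPM with the compound and 249.9 and 240.4 with DMSO, and for WT 158 and 163 and 280.1 and 285. In each line both compound libraries lay below both DMSO libraries. The log2 change was -0.48 ± 0.041 in KO22, -0.65 ± 0.042 in N22 and -0.82 ± 0.042 in WT, with adjusted p by edgeR of 8.36e-16, 1.54e-21 and 1.17e-26. Its fall was smaller in KO22 than in WT, by 0.34 ± 0.059 (adjusted p 4.35e-06), and the difference of N22 from WT, 0.17 ± 0.059, was not called (0.0562).

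Klf2 had 241 and 248 normalized CPM in KO22 with GSK-3484862, against 291 and 285 with DMSO. With the compound N22 had 336 and 351 CPM and with DMSO 419 and 401, while WT had 248 and 254 and 329 and 351. N22 was the highest line under either treatment, and the groups of each line did not overlap. Klf2 changed by -0.24 ± 0.037 in KO22, -0.26 ± 0.036 in N22 and -0.44 ± 0.037 in WT (adjusted p by edgeR 2.21e-07, 1.25e-08 and 1.28e-16). Klf5 had 383 and 382 normalized CPM in KO22 with GSK-3484862, against 433 and 457 with DMSO. In N22 it had 338 and 338 CPM with the compound and 408 and 413 with DMSO, and in WT 319 and 357 and 405 and 405. The falls in Klf5 were -0.22 ± 0.037 in KO22, -0.28 ± 0.037 in N22 and -0.26 ± 0.037 in WT (adjusted p by edgeR 1.24e-06, 3.05e-09 and 1.57e-08). No difference between lines in the response of Klf5 was called, the largest estimate being -0.061 ± 0.052 for N22 minus KO22.

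Esrrb, an orphan nuclear receptor, and Tfcp2l1, a LIF and STAT3 target of the CP2 family, showed some of the largest falls. Esrrb had 668 and 653 normalized CPM in KO22 with GSK-3484862, against 994 and 987 with DMSO. The N22 libraries held 594 and 613 CPM with the compound and 811 and 798 with DMSO, and the WT libraries 614 and 623 and 909 and 940.0. The compound libraries, at 594 to 668 CPM, lay below every DMSO library. Esrrb changed by -0.59 ± 0.030 in KO22, -0.41 ± 0.030 in N22 and -0.58 ± 0.030 in WT, with adjusted p by edgeR of 1.22e-26, 2.5e-19 and 1.43e-26. The difference between the responses of KO22 and WT was -0.0057 ± 0.042 and was not called (adjusted p 0.942), while N22 fell less than WT, by 0.17 ± 0.042 (0.005), a call lost without WT DMSO library 2 (0.14, adjusted p 0.0623).

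Tfcp2l1 had 328 and 343 normalized CPM in KO22 with GSK-3484862, against 671 and 679 with DMSO. Values in N22 were 353 and 362 CPM with the compound and 498 and 507 with DMSO, and in WT they were 335 and 333 and 579 and 598. The 6 compound libraries lay between 328 and 362 CPM, below all DMSO libraries. With DMSO KO22 was highest and N22 lowest. The log2 change was -1.01 ± 0.033 in KO22, -0.49 ± 0.033 in N22 and -0.81 ± 0.033 in WT (adjusted p by edgeR 2.8e-37, 6.53e-21 and 2.83e-32). The response of N22 differed from that of KO22 by 0.52 ± 0.046 (adjusted p 4.11e-14) and from that of WT by 0.32 ± 0.047 (3.23e-07), and that of KO22 from that of WT by -0.19 ± 0.046 (0.000662).

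Tbx3, a T-box factor that sustains ES cells and in excess drives them towards endoderm, responded in KO22. Tbx3 had 136 and 139 normalized CPM in KO22 with GSK-3484862, against 258 and 275 with DMSO. For N22 the levels were 129 and 133 CPM with the compound and 134 and 138 with DMSO, and for WT 134 and 143 and 141 and 144. KO22 with DMSO stood above all other groups, which lay between 129 and 144 CPM. The log2 change was -0.96 ± 0.043 in KO22 (adjusted p by edgeR 2.28e-29), -0.054 ± 0.045 in N22 (0.317) and -0.046 ± 0.044 in WT (0.392), so that only the first was called. The response of KO22 differed from that of WT by -0.91 ± 0.062 (adjusted p 1.2e-19), and that of N22 from that of KO22 by 0.90 ± 0.062 (5.41e-19).

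Zfp42 had 551 and 552 normalized CPM in KO22 with GSK-3484862, against 685 and 666 with DMSO. With the compound N22 had 609 and 588 CPM and with DMSO 736 and 739, while WT had 597 and 593 and 586 and 597. Both edited lines were lower with the compound, with no overlap, and the WT groups overlapped. Zfp42 changed by -0.29 ± 0.031 in KO22 (adjusted p by edgeR 1.12e-12), -0.30 ± 0.031 in N22 (2.8e-13) and 0.0086 ± 0.031 in WT (0.83, not called). With a GC content offset, an alternative chosen after seeing the data, the WT value was 0.074 and was called higher (adjusted p 0.0217). KO22 and N22 differed from WT by -0.30 ± 0.043 and -0.31 ± 0.043 (adjusted p 5.7e-08 and 1.71e-07), and from each other by -0.0080 ± 0.043, which was not called (0.933). Nanog, printed above with an OCT-SOX match, fell in WT, where the response of Zfp42, printed with an octamer, was not called. In KO22 and N22 both genes fell. The part of these motifs in the responses was not tested.

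**Figure D2:**
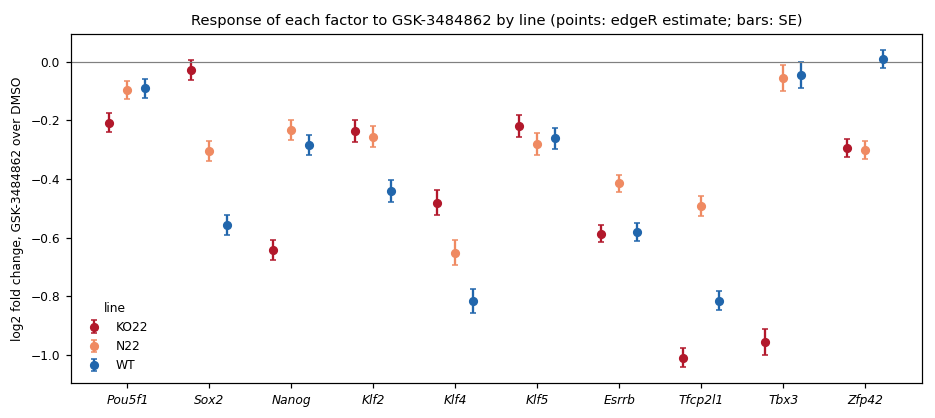
Log2 fold change of each factor, GSK-3484862 over DMSO, in KO22, N22 and WT, with bars for the SE. Tbx3 is near 0 in N22 and WT and at -0.96 in KO22, Sox2 is at -0.56 in WT and -0.027 in KO22, and the 3 values of Klf5 lie close together.

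Across the 10 factors, 8 responses differed between KO22 and WT, where 31.8% of all genes tested did. Between N22 and WT 5 differed, against 11.1% of all genes, and between N22 and KO22 6, against 18.6%. These contrasts share libraries and are not independent of each other. As above, the shares of all genes are not matched to the members' level. Relative to WT, KO22 fell further in Nanog, Tbx3, Tfcp2l1, Zfp42 and Pou5f1 and less in Sox2, Klf4 and Klf2. The Pou5f1 difference, -0.12 (adjusted p by edgeR 0.0374), was lost without KO22 DMSO library 1, WT DMSO library 1 or any of the 4 KO22 and WT compound libraries (adjusted p 0.0506 to 0.221), and the Klf2 difference, 0.20, was 0.019 with the GC content offset (adjusted p 0.807). Klf2 in N22 against WT, 0.18 (0.0115), was lost with that offset (0.12, adjusted p 0.0831) and without N22 DMSO library 2, WT DMSO library 2, WT compound library 1 or N22 compound library 2 (adjusted p 0.0681 to 0.166). Klf4 in N22 against KO22, -0.17 (0.0319), was lost by DESeq2, with RLE factors, with no filter, with the offset and without KO22 DMSO library 1 or 2, N22 DMSO library 1, KO22 compound library 2 or N22 compound library 1, at -0.086 to -0.18 (adjusted p 0.0515 to 0.406).

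The lines already differed with DMSO alone. KO22 differed from WT in all 10 factors, 7 higher and 3 lower, where 51.9% of all tested genes were called. Tbx3 was the largest difference, 0.90 ± 0.043 (adjusted p by edgeR 5.24e-28), followed by Sox2, at -0.59 ± 0.033 (1.38e-24), and Nanog, 0.37 ± 0.034 (6.52e-15). Pou5f1, Tfcp2l1, Zfp42, Klf5 and Esrrb were 0.25, 0.20, 0.19, 0.14 and 0.10 higher, and Klf2 and Klf4 stood at -0.24 and -0.12. N22 differed from WT in 6 factors, against 25.4% of all genes. Zfp42 (0.32 ± 0.031, adjusted p 3.62e-13), Klf2 (0.27 ± 0.036, 1.6e-08) and Pou5f1 (0.14 ± 0.032, 0.000479) were higher in N22, and Tfcp2l1 (-0.23), Klf4 (-0.20) and Esrrb (-0.20) lower. N22 against KO22 was called in 9 factors, against 39.1% of all genes, with Tbx3 at -0.97 ± 0.044 (2.34e-29), Sox2 at 0.55 ± 0.033 and Klf2 at 0.51 ± 0.037. Of the calls of KO22 against WT, that of Klf4 was lost without KO22 or WT library 2, that of Klf5 without KO22 library 2 and that of Esrrb without WT library 1 (adjusted p 0.069 to 0.0948), and that of Klf4 also by DESeq2 (0.0902) and with no filter on low counts (0.135).

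With GSK-3484862 fewer of the factors, and fewer of all tested genes, separated the lines. With DMSO the share of all genes called was 51.9% for KO22 against WT, 25.4% for N22 against WT and 39.1% for N22 against KO22, each above its share given here. KO22 differed from WT in 5, against 22.4% of all genes. Klf4 (0.21 ± 0.042, adjusted p by edgeR 5.9e-05), Klf5 (0.18 ± 0.037, 0.000153), Pou5f1 (0.13 ± 0.032, 0.00123) and Esrrb (0.094 ± 0.030, 0.0165) were higher and Zfp42 (-0.11 ± 0.031, 0.00526) lower in KO22. Tbx3, at -0.011 ± 0.044, and Nanog, at 0.013 ± 0.035, were no longer called, and Klf4 stood on the other side of WT than with DMSO. N22 differed from WT in 4, against 9.65%, of which Klf2 (0.45 ± 0.037, 2.14e-15) and Sox2 (0.21 ± 0.033, 1.65e-06) were the largest, and Tfcp2l1 (0.098, 0.0483) lay near the threshold. N22 against KO22 was called in 7, against 24.6%, with Klf2 at 0.49 ± 0.037, Sox2 at 0.27 ± 0.033 and Klf4 at -0.25 ± 0.042. The calls of Klf5 and Esrrb in KO22 were lost without WT compound library 1 (0.094 and 0.078, adjusted p 0.124 and 0.161), that of Esrrb also without WT compound library 2 or KO22 compound library 1 (adjusted p 0.0523 and 0.161). With the GC content offset, the calls of Pou5f1 and Esrrb in KO22 were lost (adjusted p 0.17 and 0.165). That of Pou5f1 in N22 was lost without N22 compound library 1 (0.075, adjusted p 0.26). The small Tfcp2l1 difference of N22 from WT was lost without any of the 4 libraries compared (adjusted p 0.0819 to 0.308) and by DESeq2 (0.0617).

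**Figure D3:**
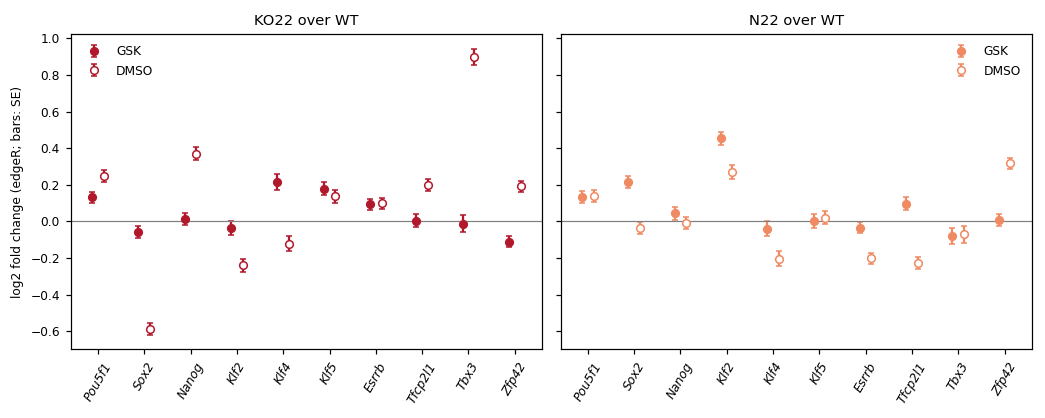
Log2 difference of KO22 over WT and of N22 over WT for each factor, with filled points for GSK-3484862, open points for DMSO and bars for the SE. In KO22, Tbx3, Sox2 and Nanog are far from 0 with DMSO (0.90, -0.59 and 0.37) and near 0 with the compound, while Klf2 in N22 stays above 0 under both.

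The ratio of the highest to the lowest of the 3 line means was smaller with GSK-3484862 than with DMSO for 8 of the 10 factors. Tbx3 had a ratio of 1.06 with the compound and 1.96 with DMSO, Tfcp2l1 1.07 and 1.34, Nanog 1.03 and 1.30, and Sox2 1.21 and 1.5. Klf4 (1.19 and 1.15) and Klf5 (1.13 and 1.1) went the other way. The same was true of 72.2% of the 2374 genes with a mean of at least 100 CPM, whose median ratio was 1.1 with the compound and 1.17 with DMSO, so the count of 8 is close to that of genes at large.

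Nanog can be set beside its chromosome, since chromosome 6 as a whole was raised in KO22. Over 805 tested genes of chromosome 6, the median log2 difference of KO22 from WT was 0.36 with GSK-3484862 and 0.27 with DMSO, against -0.0090 and -0.056 for all other genes. Nanog's own difference was 0.013 ± 0.035 with the compound and 0.37 ± 0.034 with DMSO. It thus lay above the chromosome's median with DMSO and below it with the compound. The response of KO22 to the compound had a median of -0.0060 over chromosome 6, where Nanog changed by -0.64.

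**Figure D4:**
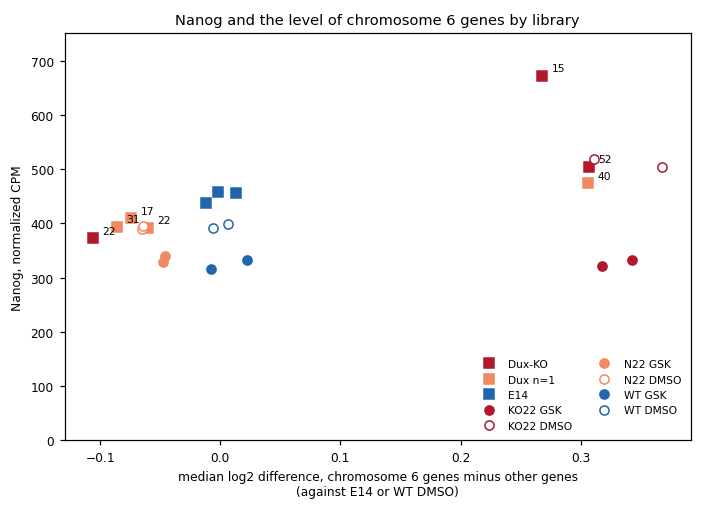
Nanog in normalized CPM against the median log2 difference of chromosome 6 genes from E14 (squares) or WT with DMSO (circles), relative to all other genes, with clone numbers beside untreated clones. All 4 KO22 libraries are at 0.31 to 0.37 on the horizontal axis, but Nanog is at 322 and 333 CPM with the compound and at 518 and 504 CPM with DMSO.

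In untreated cells most of the network, like most genes, did not separate the genotypes. Of the 10 factors, 2 were higher in Dux-KO than in E14 and none lower, where 9.26% of all genes were called higher and 11.1% lower. Against E14, 1 factor was lower in Dux n=1 and none higher, where 4.28% of all genes were called lower and 4.88% higher. In either direction 20.4% of all genes were called in Dux-KO and 9.16% in Dux n=1, so both counts of factors are near the share of all genes. Between Dux n=1 and Dux-KO edgeR called none of the 10, and 0% of all genes. That count of 0 stands beside 0 members and 856 genes at an unadjusted p below 0.05, and 0 members and 0 genes by DESeq2. Without the doubted libraries, 140 genes were called in the last comparison, no member among them.

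Zfp42 had 618, 629 and 633 CPM in Dux-KO clones 15, 22 and 52, 659, 538, 624 and 612 in Dux n=1 clones 17, 22, 31 and 40, and 755, 741 and 762 in E14. All 7 edited clones lay below all 3 E14 libraries, and Zfp42 was the only one of the 10 of which that was true, where 14.7% of all 14796 tested genes lay likewise below E14 in all 7 clones. The log2 difference was -0.26 ± 0.090 in Dux-KO (SE, n = 3 and 3; adjusted p by edgeR 0.0571, not called) and -0.31 ± 0.084 in Dux n=1 (n = 4 and 3; 0.0429, called). Without the doubted libraries the values were -0.27 (adjusted p 0.0926) and -0.30 (0.07). The call in Dux n=1 was also lost without any single E14 library or without clone 17, 31 or 40 (adjusted p 0.064 to 0.188), with no filter on low counts and with the GC content offset (adjusted p 0.125 and 0.174). The Dux-KO difference was called by DESeq2 (-0.26, adjusted p 0.0266). In the treated set, in contrast, Zfp42 with DMSO was higher in both edited lines than in WT, as given above.

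Tbx3 had 215, 163 and 326 CPM in Dux-KO clones 15, 22 and 52, 129.5, 130.0, 244 and 216 in Dux n=1 clones 17, 22, 31 and 40, and 121, 133 and 125 in E14. The Dux-KO clones lay above E14 without overlap, while Dux n=1 clones 17 and 22 fell within the E14 range. Tbx3 was 0.89 ± 0.28 higher in Dux-KO (adjusted p by edgeR 0.0418) and 0.51 ± 0.26 in Dux n=1, which was not called (0.225). Without the doubted libraries it was 1.09 (0.0168) and 0.41 (0.274). Klf4 had 243, 186 and 267 CPM in Dux-KO clones 15, 22 and 52, 243, 190.0, 212 and 215 in Dux n=1 clones 17, 22, 31 and 40, and 160.4, 187 and 165 in E14. Klf4 in the library labelled Dux-KO clone 22 lay within the E14 range, and the other edited clones above it. Its difference was 0.44 ± 0.14 in Dux-KO (adjusted p by edgeR 0.0436) and 0.33 ± 0.13 in Dux n=1, not called (0.121), and 0.57 (0.0126) and 0.34 (0.085) without the doubted libraries. Both Dux-KO calls were lost without any single E14 library, without clone 15 and without clone 52, at adjusted p of 0.0658 to 0.16, and with the GC content offset (0.70 for Tbx3 and 0.23 for Klf4, adjusted p 0.138 and 0.288). That of Tbx3 was also lost with no filter on low counts (adjusted p 0.154), and that of Klf4 with the compared groups alone in the fit (0.0547).

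Sox2 had 420.4, 524 and 459 CPM in Dux-KO clones 15, 22 and 52, 532, 637, 546 and 485 in Dux n=1 clones 17, 22, 31 and 40, and 431, 465 and 446 in E14. All 4 Dux n=1 clones lay above E14, by 0.30 ± 0.11, a difference that was not called (adjusted p by edgeR 0.1) and was called without the doubted libraries (0.36, adjusted p 0.0481). Nanog had 672, 372 and 504 CPM in Dux-KO clones 15, 22 and 52, 409.6, 392, 394 and 474 in Dux n=1 clones 17, 22, 31 and 40, and 456, 437 and 457 in E14. Dux-KO clones 15 and 52 were above E14 and the library labelled Dux-KO clone 22 below it. The Dux-KO difference of Nanog, 0.20 ± 0.17 (0.446), was 0.38 and called without the doubted libraries (adjusted p 0.0469), and it was -0.031 without clone 15. The doubted libraries were picked in part by their level of chromosome 6 genes, and Nanog lies on that chromosome. Clones 15 and 52, which remain in Dux-KO, stood 0.27 and 0.31 higher on it. The call of Nanog without the doubted libraries is therefore not independent of how they were chosen. Pou5f1, Klf2, Klf5, Esrrb and Tfcp2l1 were called in neither comparison with E14, with differences of -0.24 (Tfcp2l1) to 0.28 (Klf2) in Dux-KO and of -0.11 (Tfcp2l1) to 0.18 (Klf2) in Dux n=1. Klf2 changed sign in Dux-KO without the doubted libraries (-0.085), and in both comparisons with the GC content offset (-0.094 and -0.12).

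**Figure D5:**
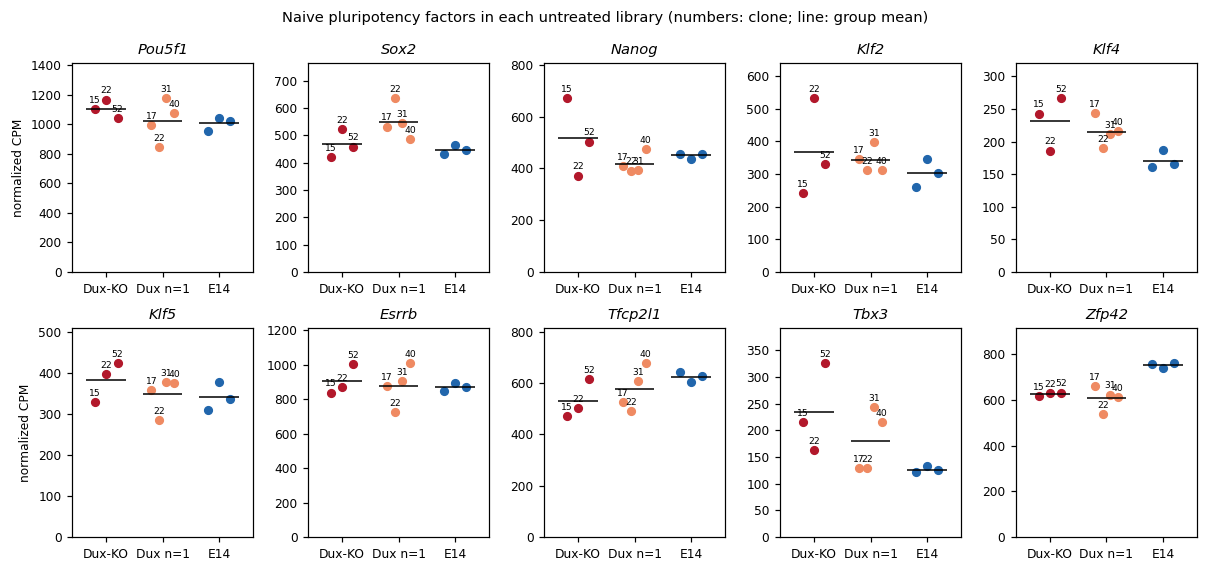
Normalized CPM of each factor in the 10 untreated libraries, with clone numbers beside the edited clones and a line at each group mean. Zfp42 is lower in all 7 edited clones, at 538 to 659 CPM, than in E14, at 741 to 762 CPM, and Tbx3, Klf2 and Nanog spread widely between clones.

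The factors differed in how far the 7 edited clones spread. The highest clone was 2.52 times the lowest for Tbx3, 2.20 for Klf2 and 1.81 for Nanog, against 1.1, 1.34 and 1.05 among the 3 E14 libraries. Such a ratio grows with the number of libraries, and its median over all genes of at least 100 CPM was 1.42 over the 7 clones and 1.07 in E14. For Nanog it runs from Dux-KO clone 22 to clone 15, which also differed on chromosome 6 (-0.11 and 0.27 relative to other genes). Of the 2343 genes with a mean of at least 100 CPM, 96.0% had a smaller ratio over the clones than Tbx3, 93.2% than Klf2 and 83.2% than Nanog. Zfp42, at 1.23, spread less than most, with 13.4% of genes below it, and the other 6 factors lay at 1.39 to 1.52, near the median of 1.42. Klf2 was highest, at 533 CPM, and Nanog and Klf4 lowest, at 372 and 186 CPM, in one of the doubted libraries, that labelled Dux-KO clone 22.

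The network's inputs and neighbours were counted from lists chosen with earlier results of these data known. For the counts that follow, the share of all tested genes that rose and fell with the compound was 24.8% and 21.2% in KO22, 26.9% and 26% in N22, and 28.7% and 28.1% in WT. Of 12 tested genes of LIF, JAK and STAT3 signalling, 4 rose and 4 fell with the compound in KO22, 3 and 5 in N22, and 3 and 6 in WT, so that the number that rose was near the share of all genes in N22 and WT. Their median log2 change was -0.0010 in KO22, 0.013 in N22 and -0.061 in WT. Socs3, the feedback inhibitor that STAT3 induces, changed by -0.16 ± 0.045 in KO22 (adjusted p by edgeR 0.00212), -0.82 ± 0.045 in N22 (1.87e-25) and -0.91 ± 0.044 in WT (2.58e-28), and its response in KO22 differed from that of WT by 0.75 ± 0.062 (7.83e-16). Pim1, a kinase gene also induced by STAT3, changed by 0.21 ± 0.042 in KO22 (adjusted p 2.88e-05), -0.44 ± 0.042 in N22 (4.06e-14) and -0.66 ± 0.041 in WT (1.55e-22). Lif itself rose by 1.59 ± 0.17 in KO22, 2.05 ± 0.16 in N22 and 1.88 ± 0.17 in WT. With DMSO, 4 of these 12 genes were higher and 5 lower in KO22 than in WT, and 0 and 6 in N22, where 23.4% and 28.5% of all genes were higher and lower in KO22, and 11.5% and 13.9% in N22.

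Of 22 other genes of the naive network, 5 rose and 14 fell with the compound in KO22, 6 and 14 in N22, and 9 and 11 in WT. The falls thus took a larger share of the list than of all genes in each line. The rises were near the share of all genes in KO22 and N22 and above it in WT. The median log2 change of the list was -0.23, -0.31 and -0.14. Tdgf1, which encodes the co-receptor Cripto, fell in KO22, N22 and WT, by -0.19 ± 0.031, -0.84 ± 0.031 and -0.84 ± 0.031 (adjusted p by edgeR 2.81e-07, 8.38e-35 and 6.24e-35). Sall1, a zinc finger factor, fell by -0.48 ± 0.038, -0.69 ± 0.039 and -0.75 ± 0.038. Tdh, the threonine dehydrogenase of mouse ES cells, fell by -0.91 ± 0.041, -0.46 ± 0.041 and -0.66 ± 0.041 in the same lines. Dppa3, a maternal factor long known as a methylation-sensitive gene of ES cells, rose in all 3, by 3.44 ± 0.24 in KO22 (adjusted p 1.03e-19), 1.82 ± 0.15 in N22 (2.23e-16) and 2.04 ± 0.17 in WT (1.36e-16). Genes that restrain the naive state or carry FGF and ERK signalling, 15 in number, were split, with 5 higher and 6 lower in KO22, 4 and 6 in N22, and 6 and 6 in WT, and had medians of -0.054, -0.10 and -0.0080. Among them Mapk3, which encodes ERK1, fell in all 3 lines, by -0.55 ± 0.046, -0.97 ± 0.046 and -0.98 ± 0.046, and Dusp6, an ERK phosphatase gene, rose by 0.15 ± 0.051 in KO22 and 0.83 ± 0.055 in WT and was not called in N22 (-0.10 ± 0.055, adjusted p by edgeR 0.111).

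Of 14 tested genes of primed or formative epiblast, the state that follows the naive one, 9 rose and 1 fell in KO22, 3 rose and 5 fell in N22, and 6 rose and 2 fell in WT. The share that rose was above that of all genes in KO22 and WT and below it in N22, and the median log2 change was 0.84, 0 and 0.45 in KO22, N22 and WT. Pou3f1 rose by 1.12 ± 0.069 in KO22, 0.55 ± 0.074 in N22 and 1.12 ± 0.073 in WT (adjusted p by edgeR 1.11e-22, 2.75e-09 and 1.4e-21). Fgf15, of the same list, went the other way, by -2.82 ± 0.24 in N22 and -1.95 ± 0.21 in WT (adjusted p by edgeR 5.97e-16 and 3.95e-12). Its mean was low, at 2.00, 1.12 and 2.08 CPM in KO22, N22 and WT with the compound, against 5.23, 7.96 and 8.07 with DMSO. Lef1, a mediator of WNT signals, rose by 1.85 ± 0.19 in KO22 and fell by -1.40 ± 0.13 in N22 (adjusted p 2.29e-13 and 2.43e-15), and was not called in WT (-0.19 ± 0.14, 0.267). With DMSO, Lef1 and Zic2 stood at -2.04 ± 0.18 and -1.69 ± 0.11 in KO22 against WT, and at 1.57 ± 0.13 and 1.08 ± 0.083 in N22 against WT. In untreated cells, Dnmt3a, which encodes a de novo DNA methyltransferase, was higher in Dux-KO (0.97 ± 0.14, adjusted p 0.00227) and Dux n=1 (1.15 ± 0.13, 0.00265) than in E14.

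Markers of other cell types were counted in the same way, beside the same shares of all genes. Of 17 primitive endoderm genes, 9 rose and 2 fell in KO22, 8 and 2 in N22, and 11 and 2 in WT, and their summed level was 1373 to 1502 CPM with GSK-3484862, against 1220.0 to 1362 CPM with DMSO. The number that rose was above the share of all genes in every line. Gata6, a defining marker, had 69 and 80 counts in KO22, 42 and 68 in N22 and 97 and 108 in WT with GSK-3484862, against 14 and 18, 14 and 20, and 32 and 41 with DMSO. It rose by 2.19 ± 0.30, 1.72 ± 0.31 and 1.5 ± 0.25 (adjusted p by edgeR 7.42e-09, 3.38e-06 and 6.11e-07). Gata4, of the same list, showed no such rise. It had 25 and 31, 22 and 41, and 56 and 60 counts in KO22, N22 and WT with the compound. With DMSO it had 33 and 28, 28 and 27, and 54 and 54. Pdgfra was near level in KO22 (26 and 26 counts, against 25 and 23 with DMSO). It was higher with the compound in N22 (33 and 36, against 19 and 23) and WT (67 and 57, against 30 and 24). Sox17 had 30 and 31 counts in KO22, 18 and 13 in N22 and 26 and 21 in WT with the compound, against 3 and 3, 2 and 2, and 2 and 9 with DMSO, and rose in each line (adjusted p 9.15e-06, 0.00056 and 0.00134). Of 13 tested trophoblast genes, 6 rose and 3 fell in KO22, 4 and 3 in N22, and 7 and 2 in WT, with sums of 165 to 187 CPM with the compound against 169.6 to 189 CPM with DMSO, and in N22 both counts were near the shares of all genes. Elf5 had 0 to 3 counts with the compound and 0 in each DMSO library. Cdx2 had 39 and 34, 15 and 19, and 12 and 24 counts in KO22, N22 and WT with the compound, against 6 and 15, 10 and 7, and 1 and 1 with DMSO, and rose in KO22 and WT (adjusted p by edgeR 0.00132 and 1.75e-05) but was not called in N22 (0.104). Of 5 tested fibroblast (feeder cell) genes 3 rose in every line and 2, 2 and 1 fell in KO22, N22 and WT, with sums of 30.1 to 52.1 CPM against 34.9 to 55.3 CPM, and Col3a1 had 0 to 4 counts with the compound and 0 to 1 with DMSO. Genes of the 2-cell embryo rose in N22 (13 of 14) and WT (14 of 14), while 2 rose and 1 fell in KO22. Their sum with the compound was 277 to 287 CPM in KO22, 316 to 318 in N22 and 329 to 351 in WT. With DMSO it was 272 to 275, 248 to 258 and 209 to 222 CPM. KO22 had the highest sum with DMSO although 11 to 12 of the 15 genes found had 0 counts there. The sum thus rests largely on the few other genes of that list. The part of cells marked by any of these lists in the results on the 10 factors was not tested.

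In the untreated set, primitive endoderm genes summed to 1074 to 1374 CPM in Dux-KO, 1084 to 1440.4 in Dux n=1 and 1204 to 1277 in E14, trophoblast genes to 143 to 178, 138 to 169 and 117 to 132, and fibroblast genes to 30.3 to 71.9, 24.6 to 40.1 and 16.7 to 19.4 CPM. Genes of the 2-cell embryo summed to 250.03 to 272 CPM in Dux-KO, 221 to 295 in Dux n=1 and 355 to 405 in E14. In E14 Zscan4c had only 1.01 to 1.88 CPM of that sum and Zscan4d 1.34 to 2.36 CPM, so most of it came from other genes of the list. Of the 11 fibroblast genes, 6 had 0 counts in every E14 and Dux-KO library, and 4 to 6 in Dux n=1. Of the 15, 12, 4 and 6 tested genes of these lists, 2, 2, 2 and 0 were called higher in Dux-KO than in E14 and 0, 0, 0 and 2 lower, where 9.26% and 11.1% of all genes were. In Dux n=1, 0, 1, 1 and 0 were higher and 0, 0, 0 and 2 lower, against 4.88% and 4.28% of all genes. Their part in the differences of Zfp42, Tbx3 and Klf4 was not tested.

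Across the 22 libraries, each set centred on its own mean, the closest pair among the factors was Esrrb and Tfcp2l1, with a Pearson correlation of log2 CPM of 0.93. Zfp42 was the least like the rest, its closest member being Tfcp2l1 at 0.52. Outside the list, among 9391 genes searched, the closest pattern to Esrrb was that of Cobl (0.97), to Klf4 Kif26a (0.95), to Sox2 Mgea5 (0.94), to Tfcp2l1 Lap3 (0.94) and to Zfp42 Cstf2t (0.93). Klf5 was most like Tcof1 (0.91), Tbx3 Slc29a3 (0.90), Pou5f1 Aspscr1 (0.89), Nanog Xaf1 (0.88) and Klf2 Kdm5b (0.87). These are descriptions over libraries that share lines, clones and treatments, and each is the highest of many.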

How the data were processed

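Per the file headers, the deposited files hold raw counts of read pairs per gene, made with featureCounts for each library from an Ensembl annotation of GRCm38, without multimapping, strand or overlap options. The submitters' processing notes name fastp 0.23.2, HISAT2 2.1.0, featureCounts 2.0.1 and DESeq2 1.40.2. Libraries were grouped by their titles, and no 2 held identical counts.

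Each set was fitted once, all groups together, with edgeR 4.0.16 in R 4.3.3: TMM normalization, filterByExpr with a minimum count of 10, a robust quasi-likelihood test, and Benjamini-Hochberg adjustment over the 14796 genes tested in the untreated set and the 16641 in the treated set. Normalized CPM are counts over TMM-scaled library sizes. The SE given with a log2 change is the size of the change over the square root of the test's F statistic. It rests on a spread estimated over all groups of the set and moderated across genes, not on the compared libraries alone. The steps were tested on simulated counts. All 10 factors passed the filter in both sets. The sets were not joined, because nothing says that they were run together, and WT is not stated to be E14.

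Results were recomputed leaving out each library, with a replicate block, with the compared groups alone, without the filter, with RLE factors and with DESeq2 1.42.0. A GC content offset (lowess span 0.3) and leaving out both doubted libraries were added after seeing the data.

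The 10 factors and the lists (LIF signalling, other naive genes, brakes on the naive state, primed epiblast, primitive endoderm, trophoblast, fibroblasts, 2-cell embryo) were chosen with earlier results of these data known. Of each of the first 4 lists, genes are named only from the 3 with the smallest p among those called in a comparison. The genes most like a factor are those of highest Pearson correlation of log2 CPM (prior count 2) among genes whose log2 CPM averaged 3 or more. Duxf3, Zscan4c, Zscan4d and the marker genes Gata6, Gata4, Pdgfra, Sox17, Elf5, Cdx2 and Col3a1 were named as checks of the labels and cell types. They were named after their values were seen.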

Additional observations from a re-analysis of the deposited data

Results flagged for a closer look

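Of 30 tests of whether a factor's response to GSK-3484862 differed between 2 lines, 19 passed the threshold (edgeR interaction test, adjusted p below 0.05, 2 libraries a group), and each is given as the difference of log2 responses. For KO22 minus WT they were -0.91 for Tbx3, 0.53 for Sox2, -0.36 for Nanog, 0.34 for Klf4, -0.30 for Zfp42, 0.20 for Klf2, -0.19 for Tfcp2l1 and -0.12 for Pou5f1. For N22 minus WT they were 0.32 for Tfcp2l1, -0.31 for Zfp42, 0.25 for Sox2, 0.18 for Klf2 and 0.165 for Esrrb. For N22 minus KO22 they were 0.90 for Tbx3, 0.52 for Tfcp2l1, 0.41 for Nanog, -0.28 for Sox2, -0.17 for Klf4 and 0.17 for Esrrb. A positive value means that the level fell less, or rose more, with the compound in the line named first. Klf5 was in none of these groups, and Zfp42 differed from WT in the same direction in both edited lines. The 3 comparisons share libraries. In the Dux n=1 group, the 1 group large enough for a test of a single library far from the rest (Dixon's test, 4 libraries), none of the 10 factors had such a library.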

How the results depend on the processing

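Of 89 calls on the 10 factors over 15 comparisons, 67 were kept under every alternative run, among them 9 of 9 GSK-3484862 responses in KO22, 8 of 9 in N22 and 7 of 8 in WT. Over 1700 recomputed values none of the 973 of called factors changed sign, and 75 of uncalled ones did.

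The 2 factors called in Dux-KO against E14 became 1 with no filter and 0 with the GC content offset, and 0 to 2 with a library left out. The 1 called in Dux n=1 against E14 became 0 with no filter, 0 with the offset, 2 with the compared groups alone, and 0 to 1 with a library left out. With a library left out, 3 to 6 responses differed between N22 and WT, and with the compound 3 to 5 factors differed between KO22 and WT and 2 to 3 between N22 and WT. With the offset 12 uncalled values changed sign, 4 in the treated and 8 in the untreated set. Among those given above were the responses of Tbx3 in WT (0.015) and Sox2 in KO22 (0.0050) and Klf2 in Dux-KO and Dux n=1 against E14 (-0.094 and -0.12). Klf2 in Dux-KO was -0.085 without the doubted libraries, and the response of Zfp42 in N22 minus KO22, -0.0080, was 0.0080 by DESeq2, 0.0082 with RLE factors, 0.0044 with no filter and 0.0012 with the offset. With a library left out, uncalled values ranged from -0.086 to 0.0026 for Tbx3 in WT, -0.064 to 0.0051 for Sox2 in KO22, -0.0027 to 0.025 for Zfp42 in WT, -0.031 to 0.38 for Nanog and -0.084 to 0.52 for Klf2 in Dux-KO against E14, -0.035 to 0.014 for Esrrb in KO22 minus WT, and -0.031 to 0.022 for Zfp42 in N22 minus KO22. With the compound, KO22 against WT ranged from -0.026 to 0.043 for Nanog and -0.060 to 0.029 for Tbx3. A group left with 1 library was assumed to vary like the others, and the cause of these changes was not tested.

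Over all genes, the count for Dux-KO against E14, 3016, was 977 with the offset and 931 to 1977 without E14 library 1, 2 or 3 or Dux-KO clone 15. For Dux n=1 against E14 it was 1355, but 2515 by DESeq2, 327 with the offset, 2450 with the compared groups alone and 24 to 351 without an E14 library or Dux n=1 clone 17. By DESeq2 the counts were 1178 and not 1844 for N22 minus WT responses, 2047 and not 3101 for N22 minus KO22, and, with the compound, 2451 and not 3728 for KO22 against WT and 935 and not 1606 for N22 against WT, the last 884 to 972 with a library left out. With DMSO, N22 against WT gave 2811 and not 4221 without N22 library 2.

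Replicate numbers of the treated set did not pair libraries: over 15 pairs of groups the correlation of deviations was -0.017 to 0.029. The replicate block left 119 of 120 values on the same side of the threshold and made Klf4 in N22 minus WT a call (0.165, adjusted p by edgeR 0.046). No paired analysis was possible in the untreated set because its groups share fewer than 2 clone numbers.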
